A study of Mus musculus with 13 samples.

Results

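The receptor subunits described here are 55 probe sets for 44 genes of the mouse brain, among 12422 gene probe sets on the array. They were chosen by symbol from the array's annotation: probe sets assigned to a single gene of the AMPA (Gria), kainate (Grik), NMDA (Grin), metabotropic glutamate (Grm), GABA-A (Gabr), glycine (Glra), muscarinic (Chrm), nicotinic (Chrn), serotonin (Htr), dopamine (Drd) or adrenergic (Adra, Adrb) receptor families. Gria3, Grik5, Gabrd, Chrm1 and Drd2, read by 6 probe sets, were left out by name. Each of these 5 genes was called lower in untreated R6/2 mice on a probe set with all arrays fitted, so the counts below are of the remaining receptor genes only. Of the 55 probe sets, 30 for 26 genes lay above a filter on dim signals and were tested. The 25 probe sets below it never read more than 44.7 on any array.

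RNA came from whole brain hemispheres and was read on 13 Affymetrix MG-U74Av2 arrays. The groups were R6/2 mice given the triple treatment (3 arrays), untreated R6/2 mice (4 arrays), wild type mice given the triple treatment (3 arrays) and untreated wild type mice (3 arrays), as the sample titles give them. R6/2 mice carry the first exon of human huntingtin with an expanded CAG repeat, driven widely by the human huntingtin promoter, and model Huntington's disease in many tissues and not in the striatum alone. The treatment combined tacrine, a cholinesterase inhibitor (2.7 mg/kg daily from 5 weeks of age), moclobemide, a monoamine oxidase A inhibitor (10 mg/kg daily), and creatine, an energy buffer mixed into wet food at 1%. These drugs are listed in the description of every sample, the untreated ones too, so treatment rests on the titles. The labels give no sex, strain background or repeat length, and an age at harvest (8 weeks) for 1 wild type untreated array only. Whether any arrays share an animal is not stated, so p-values measure the spread between these samples, which may be technical.

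Ligand-gated receptors are assembled from several subunits, and the subunit mix sets how fast a channel opens, which ions pass and which drugs bind. AMPA, kainate and NMDA receptors carry excitatory glutamate signals, GABA-A and glycine receptors carry inhibitory chloride currents, and nicotinic and serotonin type 3 receptors are cation channels. Metabotropic glutamate, muscarinic, adrenergic, dopamine and the other serotonin receptors act through G proteins. Tacrine raises acetylcholine and moclobemide raises monoamines, the ligands of the muscarinic, nicotinic, adrenergic, dopamine and serotonin families.

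Values are signals on a linear scale as deposited, and differences are on the log2 scale, where -1 is a halving. Median signal per array ranged from 39.6 to 45.1. Untreated R6/2 arrays 2 and 3 stood apart on the first principal component of all tested probe sets, at 25.4 and 45.7. The other 11 arrays were at 4.09 or less, the untreated wild type arrays lowest at -13.9, -14.3 and -14.7. The main results that use the untreated R6/2 group are therefore also given without arrays 2 and 3. Those fits keep only untreated R6/2 arrays 1 and 4 in that group. The arrays left out are those furthest from untreated wild type on this component, which can itself shrink genotype differences. The 66 control rows of untreated R6/2 array 4 equalled those of untreated R6/2 array 1 multiplied by 1.2. Those of untreated R6/2 array 2 and treated R6/2 array 1, and those of untreated R6/2 array 3 and treated R6/2 array 3, were likewise in 1 fixed ratio, while gene rows matched exactly in at most 1.12% of cases between any 2 arrays. The lot batch number in the description equals the number in the title for 12 of 13 samples. The description of treated R6/2 array 1 carries the number in the title of untreated R6/2 array 4.

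In untreated mice, 6 of the 30 receptor probe sets, for 5 genes, were lower in R6/2 than in wild type brain and none was higher. They were the adrenergic receptor Adra2c, the GABA-A subunit Gabra2, the kainate subunit Grik2 on both of its tested probe sets, the NMDA subunit Grin2c and the serotonin receptor Htr1b. In all probe sets tested, 11.9% were called in this comparison, and 6.41% were called lower. The median difference of the 30 was -0.37, and 23 had estimates below 0, against a median of 0.04 and 45.7% below 0 in all probe sets tested. On 11 of the 30, for 10 genes, every untreated R6/2 array read below every untreated wild type array, as on 12.3% of all probe sets, and none was clear of overlap in the other direction. An unadjusted p under 0.05 was reached by 11 of the 30, against 30.2% of all probe sets. Without untreated R6/2 arrays 2 and 3 the median of the 30 was -0.15, and Adra2c alone was called, where 2.19% of all probe sets were.

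Promoter sequences are printed for Adra2c and Gabra2, the pair of members called both in untreated mice and over both treatment arms. They run from 250 bases before to 50 bases after the annotated start (RefSeq, GRCm38.p6), 5′ to 3′ on the gene's strand. Capitals mark matches, on either strand, to 4 motifs that were searched: the GC box GGGCGG, the E-box CACGTG, the cyclic AMP response element TGACGTCA and the Egr site GCGTGGGCG. Adra2c lies on the plus strand at chr5:35278316-35278615, and Gabra2 on the minus strand at chr5:71095800-71096099.
Adra2c: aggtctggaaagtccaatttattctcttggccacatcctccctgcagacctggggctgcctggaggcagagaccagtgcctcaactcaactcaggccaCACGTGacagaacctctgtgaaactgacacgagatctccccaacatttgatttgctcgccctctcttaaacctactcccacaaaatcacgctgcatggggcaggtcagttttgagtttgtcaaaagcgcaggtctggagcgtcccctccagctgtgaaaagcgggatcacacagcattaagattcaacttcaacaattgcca
Gabra2: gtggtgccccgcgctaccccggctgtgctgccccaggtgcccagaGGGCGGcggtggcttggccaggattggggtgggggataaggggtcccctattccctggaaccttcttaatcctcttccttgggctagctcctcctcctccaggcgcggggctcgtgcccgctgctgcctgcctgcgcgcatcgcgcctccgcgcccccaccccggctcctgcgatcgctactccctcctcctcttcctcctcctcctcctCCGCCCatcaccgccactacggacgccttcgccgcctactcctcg
The Adra2c window held 1 E-box and no GC box, and the Gabra2 window held 2 GC boxes and no E-box. Of the 32851 windows of the same length, 35.7% held a GC box and 7.15% an E-box. Windows were available for all 5 genes that fell, and of these 2 held a GC box, 1 an E-box and 0 either of the other motifs, which 1.79% and 0.612% of all windows held. A match is a description of the letters and not a site shown to be used.

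**Figure D1:**
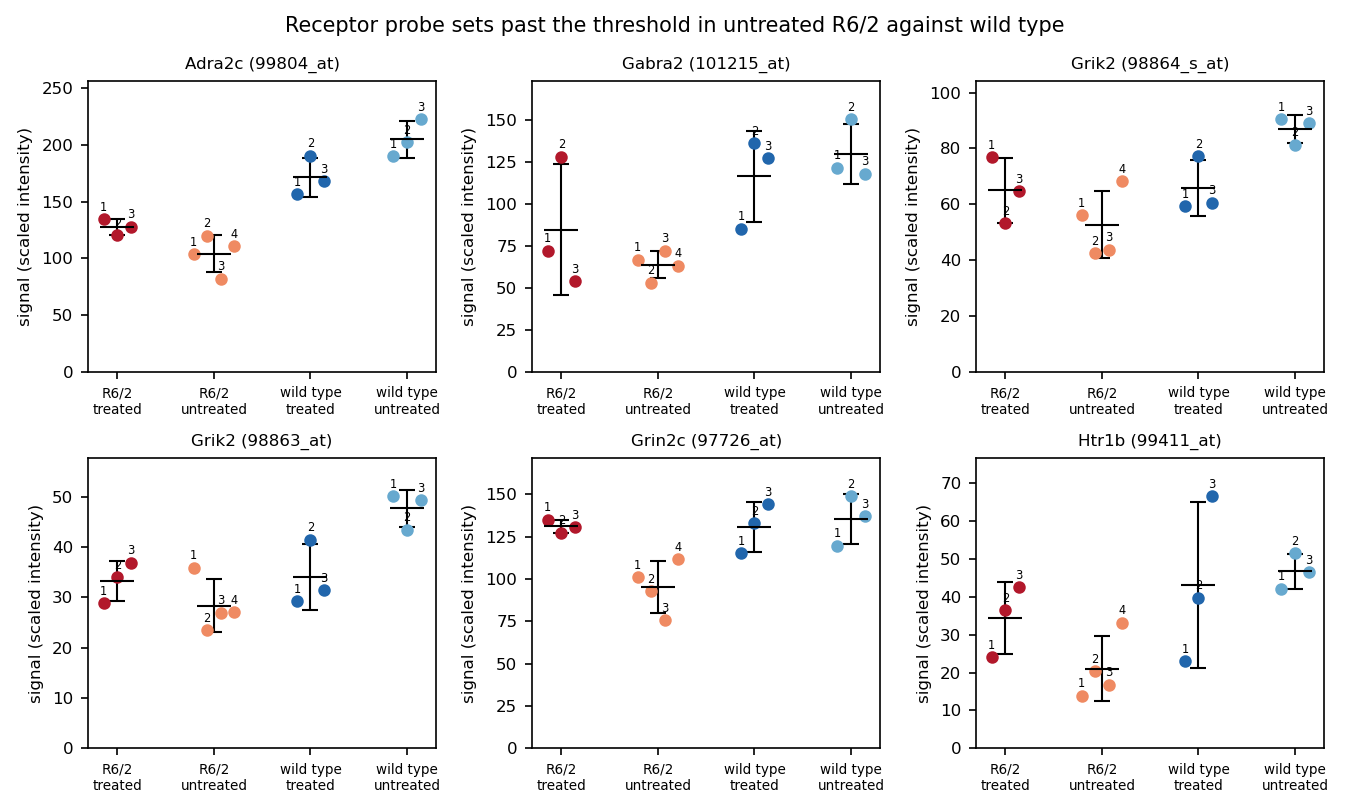
Signal (scaled intensity, linear axis from 0) of the 6 receptor probe sets past the threshold in untreated R6/2 against untreated wild type mice, by group. Points are arrays numbered by replicate, bars are mean ± SD (n = 3, and n = 4 in untreated R6/2). Adra2c read 82.2 to 120.1 in untreated R6/2 mice and 190.3 to 222.7 in untreated wild type mice.

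Adra2c encodes the alpha 2C adrenergic receptor, an inhibitory receptor for noradrenaline that is abundant in striatum. Its signal was 103.8, 120.1, 82.2 and 111.1 on the untreated R6/2 arrays, against 190.3, 202.8 and 222.7 on the untreated wild type arrays. Every untreated R6/2 array was below every untreated wild type array. The log2 difference was -0.99 ± 0.14 (SE, limma adjusted p = 0.00129), and with untreated R6/2 arrays 2 and 3 set aside it was -0.93 ± 0.13 (adjusted p = 0.00292). With any 1 of the 13 arrays left out, the adjusted p stayed between 0.00113 and 0.014. In treated mice Adra2c read 134.4, 120.3 and 127.9 in R6/2 mice, against 156.5, 190.6 and 167.9 in wild type mice. These groups did not overlap either, but the difference of -0.43 ± 0.15 did not pass (adjusted p = 0.322). Averaged over both treatment arms the difference was -0.71 ± 0.10 (adjusted p = 0.000834), with 7 of 7 R6/2 arrays below every wild type array.

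Gabra2 encodes the alpha 2 subunit of GABA-A receptors, which sits at inhibitory synapses of forebrain neurons. It read 66.8, 53, 72 and 63.1 in untreated R6/2 mice, against 121.4, 150.2 and 117.8 in untreated wild type mice. The groups were clear of each other, with a log2 difference of -1.03 ± 0.25 (SE, adjusted p = 0.0207). The size was about the same without untreated R6/2 arrays 2 and 3 (-0.99 ± 0.30), where it did not pass (adjusted p = 0.104). The call was also lost without any 1 of the 3 untreated wild type arrays or without untreated R6/2 array 2, while the difference stayed between -0.92 and -1.09 over all 13 omissions. In treated mice the groups overlapped, at 72, 128.1 and 53.8 in R6/2 mice against 85.2, 136.2 and 127.3 in wild type mice, with treated R6/2 array 2 as high as wild type arrays (-0.52 ± 0.27, adjusted p = 0.6). Averaged over both arms the difference was -0.78 ± 0.18 (adjusted p = 0.0202).

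The other GABA-A subunits above the filter did not pass in any comparison. Gabrg1 and Gabrb1, on chromosome 5 in the same cluster of subunit genes as Gabra2, were at -0.22 ± 0.22 and 0.12 ± 0.11 in untreated R6/2 against wild type mice, and at 0.00 and 0.02 with untreated R6/2 arrays 2 and 3 set aside. Gabrb1 encodes a beta subunit of the receptor pore. It read 641.9, 728.3, 794.9 and 671.7 in untreated R6/2 mice, against 634.2, 656 and 654.8 in untreated wild type mice, and the groups overlapped. Gabra3 was at -0.46 ± 0.27, Gabrb2 at -0.33 ± 0.29 and Gabrg3 at 0.05 ± 0.23 (adjusted p = 0.265, 0.463 and 0.904). Gabra3 was at -0.01 ± 0.22, Gabrb2 at -0.11 ± 0.34 and Gabrg3 at 0.06 ± 0.28 once untreated R6/2 arrays 2 and 3 were set aside. The glycine receptor subunit Glra1, known best from spinal cord and brain stem, was at -0.49 ± 0.26 (adjusted p = 0.215). Its signal was 59.2, 60.2, 25.2 and 61 in untreated R6/2 mice, against 63.9, 63.7 and 76.8 in untreated wild type mice, and untreated R6/2 array 3 read far below all others. Without untreated R6/2 arrays 2 and 3 Glra1 was at -0.18 ± 0.16.

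Grik2 encodes the GluK2 subunit of kainate receptors, which modulate glutamate release and excitability. Probe set 98864_s_at read 56.2, 42.6, 43.8 and 68.3 in untreated R6/2 mice, against 90.4, 81.4 and 89.1 in untreated wild type mice. Probe set 98863_at read 35.9, 23.5, 27 and 27.1 in untreated R6/2 mice, against 50.2, 43.5 and 49.4 in untreated wild type mice. On each probe set every untreated R6/2 array was the lower, with differences of -0.75 ± 0.19 and -0.76 ± 0.20 (SE, adjusted p = 0.0241 and 0.029). Over the 13 arrays the log2 values of these probe sets correlated at r = 0.78, which includes the differences between groups. Without untreated R6/2 arrays 2 and 3 the differences were -0.49 ± 0.19 and -0.61 ± 0.23 and did not pass (adjusted p = 0.189 and 0.176). Neither call held without any 1 of the 3 untreated wild type arrays, untreated R6/2 array 2 or untreated R6/2 array 3. In treated mice 98864_s_at read 76.9, 53.3 and 64.6 in R6/2 and 59.4, 77.3 and 60.6 in wild type mice. The treated groups overlapped, at differences of -0.02 ± 0.20 and -0.03 ± 0.22 on the pair of probe sets.

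Among NMDA receptor genes, Grin2c, whose subunit is typical of cerebellar granule cells, was the member that passed. It read 101.1, 92.7, 75.7 and 111.5 in untreated R6/2 mice, against 119.7, 149 and 137.2 in untreated wild type mice, without overlap. The difference was -0.51 ± 0.15 (SE, adjusted p = 0.0373), and with untreated R6/2 arrays 2 and 3 set aside it was -0.34 ± 0.14 (adjusted p = 0.213). Leaving out 1 array ended this call for 7 of the 13 arrays: the 3 untreated wild type arrays, treated wild type array 2, untreated R6/2 arrays 2 and 3, and treated R6/2 array 3. Treated R6/2 mice read 134.9, 127.3 and 130.7, against 115.1, 133 and 144.2 in treated wild type mice, a difference of 0.01 ± 0.16.

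Grin2b, the GluN2B subunit of forebrain NMDA receptors, had a difference of nearly the same size in each treatment arm and passed in neither. It read 20.4, 28.1, 18.8 and 29.1 in untreated R6/2 mice, against 80.3, 29.8 and 35.8 in untreated wild type mice. In treated mice it read 33.3, 34.9 and 15.1 in R6/2 and 35.8, 58.3 and 51.7 in wild type mice. The groups did not overlap in either arm, though neighbouring arrays lay close, and untreated wild type array 1 was far above the other two. The differences were -0.90 ± 0.36 and -0.87 ± 0.39 (SE, adjusted p = 0.112 and 0.512), and averaged -0.89 ± 0.27 (adjusted p = 0.0625). With untreated R6/2 arrays 2 and 3 set aside the untreated difference was -0.86 ± 0.45 and the averaged one -0.86 ± 0.30 (adjusted p = 0.322 and 0.125). Grin2d, the GluN2D subunit, was at -0.69 ± 0.41 in untreated mice (adjusted p = 0.272), with a single low reading of 10.1 on untreated R6/2 array 3. Grin2d was at -0.06 ± 0.29 when that array and untreated R6/2 array 2 were set aside.

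Of the serotonin receptors, 8 probe sets for 8 genes were tested and Htr1b was called. Htr1b encodes the 5-HT1B receptor, an inhibitory receptor on nerve endings, including those of striatal projection neurons. It read 13.9, 20.3, 16.8 and 33.2 in untreated R6/2 mice, against 42.2, 51.5 and 46.6 in untreated wild type mice. On 3 of the 4 untreated R6/2 arrays Htr1b read below the filter signal of 24.9. All 4 untreated R6/2 arrays were below the wild type range, at -1.23 ± 0.35 (SE, adjusted p = 0.0399), and with untreated R6/2 arrays 2 and 3 set aside at -1.12 ± 0.44 (adjusted p = 0.193). The call was lost without any 1 of 7 arrays: the 3 untreated wild type arrays, treated wild type array 2, and untreated R6/2 arrays 1, 2 and 3. In treated mice Htr1b read 24.1, 36.5 and 42.6 in R6/2 mice, against 23, 39.8 and 66.7 in wild type mice, with overlap (-0.23 ± 0.38).

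Htr5a, a receptor of cortex and hippocampus, read 81.2, 75.4, 59.1 and 79.2 in untreated R6/2 mice, against 95.1, 90 and 93.9 in untreated wild type mice. These groups did not overlap, and the difference of -0.35 ± 0.15 did not pass (adjusted p = 0.144). It was -0.21 ± 0.16 with untreated R6/2 arrays 2 and 3 set aside. The remaining serotonin receptors ranged from -0.41 (Htr1a) to 0.19 (Htr5b), with adjusted p of 0.226 or more, and included Htr1d, Htr3a, Htr4 and Htr7. With those arrays set aside they ranged from -0.30 (Htr1a) to 0.53 (Htr5b), and Htr3a, a subunit of the serotonin-gated channel, was at 0.36 ± 0.35 against -0.39 ± 0.44 with all arrays. Drd4, the D4 dopamine receptor, was at -0.10 ± 0.20 in untreated mice. The nicotinic subunits above the filter were Chrna7, which forms channels on its own (-0.43 ± 0.27), and Chrne, a subunit of the adult muscle receptor (-0.78 ± 0.35), and neither passed (adjusted p = 0.29 and 0.15). They were at -0.34 ± 0.28 and -0.44 ± 0.40 with the same arrays set aside. The Chrne probe set, 92967_r_at, is of a class made under relaxed design rules. Grm8, a presynaptic metabotropic glutamate receptor, was at -0.15 ± 0.21 (adjusted p = 0.656), and at 0.05 ± 0.23 with untreated R6/2 arrays 2 and 3 set aside. Drd4 was then at 0.05 ± 0.21.

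No AMPA receptor probe set passed in any of the 6 comparisons with all arrays fitted, and the probe sets of Gria1 did not follow each other. Gria1 encodes the GluA1 subunit. On probe set 92944_at it read 257.8, 202.2, 142.4 and 319.7 in untreated R6/2 mice, against 357.5, 325.2 and 417.1 in untreated wild type mice. The untreated groups did not overlap, but the difference of -0.72 ± 0.24 did not pass (SE, adjusted p = 0.0593), and it was -0.35 ± 0.20 without untreated R6/2 arrays 2 and 3. On probe set 92943_at Gria1 read 359.9, 274.8, 382.5 and 312.2 in untreated R6/2 mice, against 344, 435.8 and 335.2 in untreated wild type mice, at -0.16 ± 0.15. Across the 13 arrays the log2 values of this pair correlated at r = -0.01.

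Gria2 encodes GluA2, the subunit that keeps calcium out of AMPA receptors. Probe set 92947_s_at read 1564.9, 2245.7, 2776.7 and 1886.3 in untreated R6/2 mice, against 1616.8, 1512.5 and 1598.4 in untreated wild type mice. Untreated R6/2 arrays 3 and 2 were the highest of all 13, while array 1 lay within the wild type range. The difference was 0.39 ± 0.15 (SE, adjusted p = 0.0913), and 0.13 ± 0.10 without those arrays. Probe sets 92945_at and 92946_f_at were at 0.36 ± 0.24 and 0.10 ± 0.16, and also had their highest readings on untreated R6/2 arrays 2 and 3. The pairs of Gria2 probe sets correlated at r = 0.68, 0.75 and 0.85 over the 13 arrays. In treated mice 92947_s_at read 1474, 1509.1 and 1546.5 in R6/2 mice, against 1845.8, 1775.9 and 1638.5 in wild type mice. The treated groups did not overlap, in the direction opposite to that in untreated mice, and the difference of -0.21 ± 0.16 did not pass (adjusted p = 0.808). The remaining probe set of Gria2, 162076_r_at, lay below the filter.

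**Figure D2:**
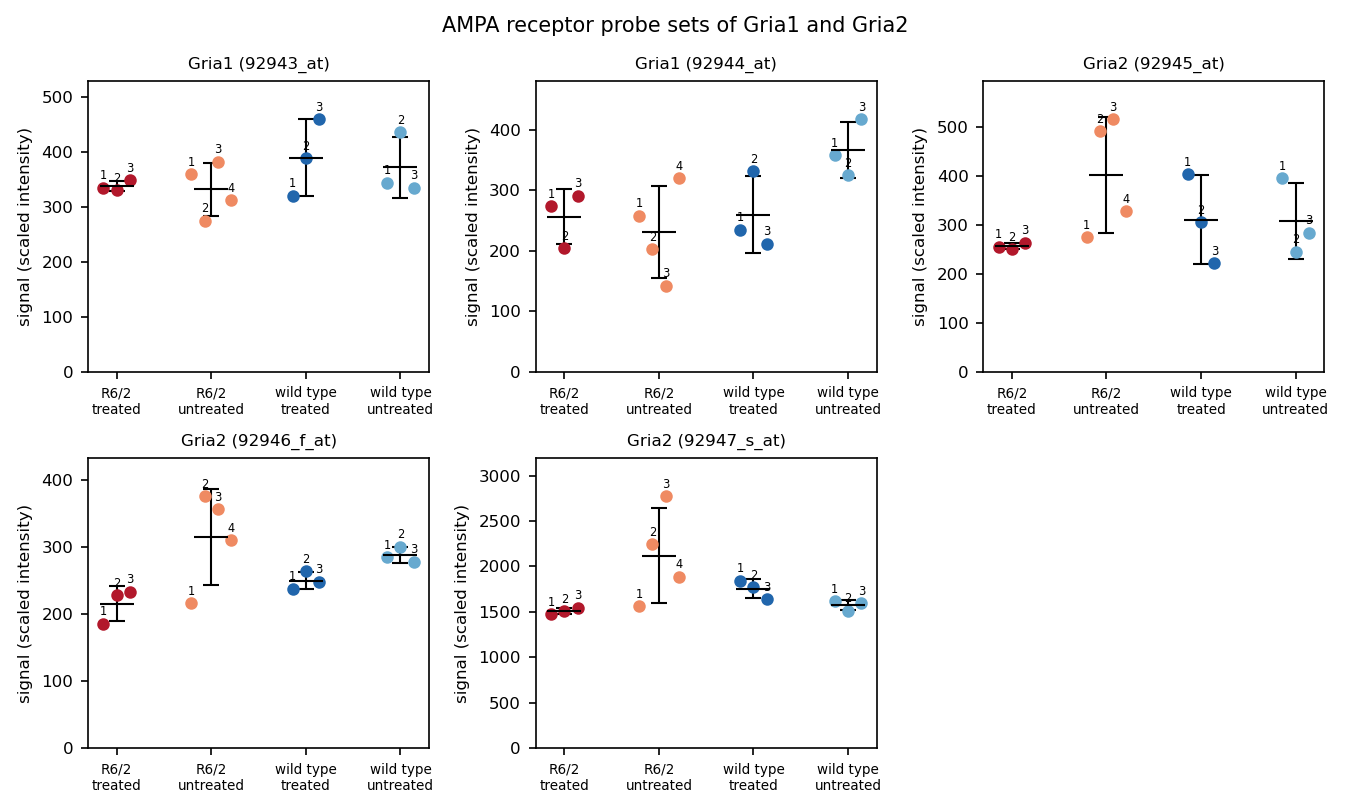
Signal (scaled intensity, linear axes from 0) of the 5 tested probe sets of the AMPA subunits Gria1 and Gria2, by group. Points are arrays numbered by replicate, bars are mean ± SD (n = 3, and n = 4 in untreated R6/2). Untreated R6/2 arrays 2 and 3 are the highest of all arrays on each Gria2 probe set, and on 92947_s_at they read 2245.7 and 2776.7.

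Genotype was then compared under treatment. None of the 30 receptor probe sets passed in limma, where 0.792% of all probe sets were called, and 3 of 30 had an unadjusted p under 0.05, against 9.19% of all probe sets, each lower in R6/2 mice: Adra2c, Drd4 and Grin2b. On 5 of the 30 every treated R6/2 array read below every treated wild type array, as on 8.17% of all probe sets, and these were the same 3 genes and Gria2 on 92946_f_at and 92947_s_at. The median difference was -0.04, against 0.03 in all probe sets tested. Drd4 read 66.2, 49.4 and 73.3 in treated R6/2 mice, against 87.9, 90.2 and 88.4 in treated wild type mice, without overlap (-0.52 ± 0.21, adjusted p = 0.459). The next smallest p-values were those of Gabra2, given above, and of Htr5b, which read 41.2, 28.2 and 31.5 in treated R6/2 mice, against 36.7, 48.8 and 45.6 in treated wild type mice. Those Htr5b readings overlapped (-0.39 ± 0.26, adjusted p = 0.77). Averaged over both arms, 2 of the 30 receptor probe sets were called, Adra2c and Gabra2, where 6.61% of all probe sets were called and 4.04% were called lower. Both calls held without untreated R6/2 arrays 2 and 3, where 5.68% of all probe sets were called, at -0.68 ± 0.09 and -0.76 ± 0.20 (adjusted p = 0.000654 and 0.0471). The averaged Gabra2 call was lost without untreated wild type array 2, treated wild type array 2 or 3, or treated R6/2 array 1 or 3, at -0.64 to -0.95 and an adjusted p of up to 0.061 over all 13 omissions.

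**Figure D3:**
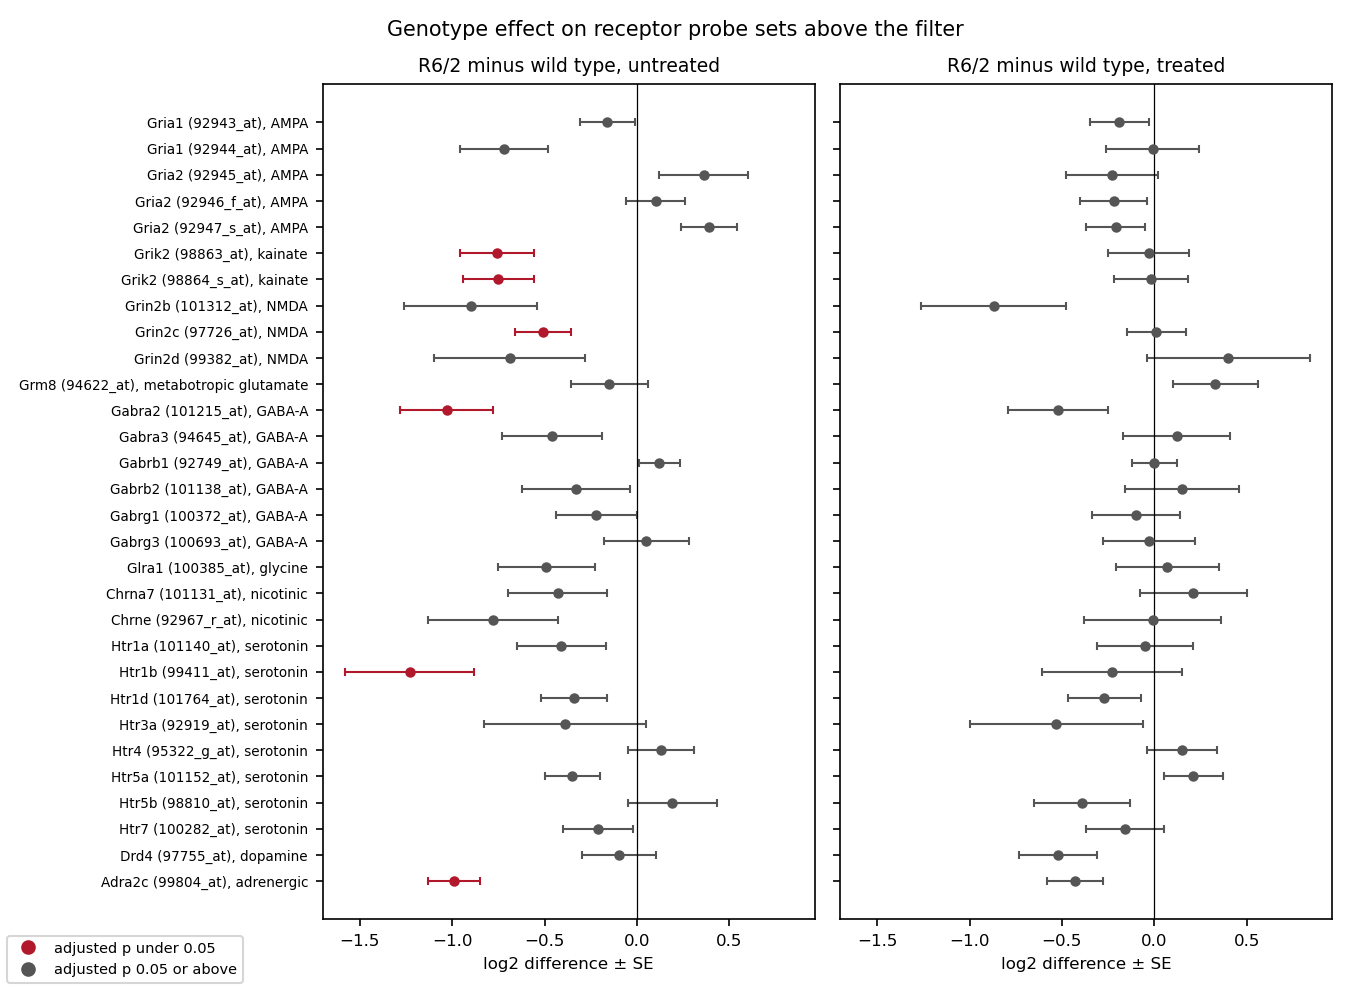
Log2 difference ± SE of the 30 tested receptor probe sets, R6/2 minus wild type, in untreated mice (left) and in treated mice (right), in order of family. Red points have an adjusted p under 0.05, of which there are 6 in untreated and 0 in treated mice, and 23 of the 30 untreated estimates lie below 0.

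The treatment comparisons ask what tacrine, moclobemide and creatine changed within each genotype. In R6/2 mice no receptor probe set passed in limma, where 0% of all probe sets did. Of the 30, 6 for 4 genes had an unadjusted p under 0.05, against 16.9% in all probe sets. The median difference was 0.20, against 0.02 in all probe sets tested, and it was 0.01 without untreated R6/2 arrays 2 and 3. This comparison shares the untreated R6/2 arrays with the genotype comparison of untreated mice, so the values of each are given side by side only. Grin2c was at 0.47 ± 0.15 for treatment and -0.51 ± 0.15 for genotype, Htr5a at 0.35 ± 0.15 and -0.35 ± 0.15, and Adra2c at 0.30 ± 0.14 and -0.99 ± 0.14. For these genes every treated R6/2 array was above every untreated one, though for Adra2c only by 120.3 against 120.1. In this comparison 5 of the 30 probe sets, for 4 genes, had no overlap, against 10.6% of all probe sets. The Gria2 probe sets 92945_at, 92946_f_at and 92947_s_at were at -0.60 ± 0.24, -0.52 ± 0.16 and -0.46 ± 0.15 for treatment in R6/2 mice (adjusted p = 0.257, 0.247 and 0.247). Without untreated R6/2 arrays 2 and 3 they were at -0.23, -0.27 and -0.19, and Grin2c was at 0.30, Htr5a at 0.22 and Adra2c at 0.25. Without untreated R6/2 array 1, in contrast, 92946_f_at and 92947_s_at passed as lower in treated mice, at -0.69 and -0.59 (adjusted p = 0.0232 and 0.0403). That omission raised the calls among all probe sets from 0 to 116, so the change was not particular to Gria2. It also gave more weight to untreated R6/2 arrays 2 and 3, which stood apart on the first principal component.

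In wild type mice no receptor probe set passed for treatment in limma, with 0% of all probe sets called, and 2 of 30 had an unadjusted p under 0.05, against 10.3% of all probe sets. The median difference was -0.10, against 0.01 in all probe sets tested. Htr5b, a serotonin receptor gene, read 36.7, 48.8 and 45.6 in treated mice, against 27.6, 26.3 and 28 in untreated mice, without overlap (0.67 ± 0.26, adjusted p = 0.402). Grik2 98863_at read 29.3, 41.5 and 31.5 in treated mice, against 50.2, 43.5 and 49.4 in untreated mice, also without overlap (-0.50 ± 0.22, adjusted p = 0.448). Its probe set 98864_s_at was at -0.41 ± 0.20, Gria1 92944_at at -0.52 ± 0.25 and Drd4 at 0.39 ± 0.21, and none of these passed. The untreated wild type arrays also serve the genotype comparison of untreated mice, and the treated ones that of treated mice. The values of Grik2, Gria1, Drd4 and Htr5b here are therefore not separate from their genotype differences. In this comparison 20% of the receptor probe sets, for 4 genes, had no overlap between groups, against 21.8% of all probe sets.

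**Figure D4:**
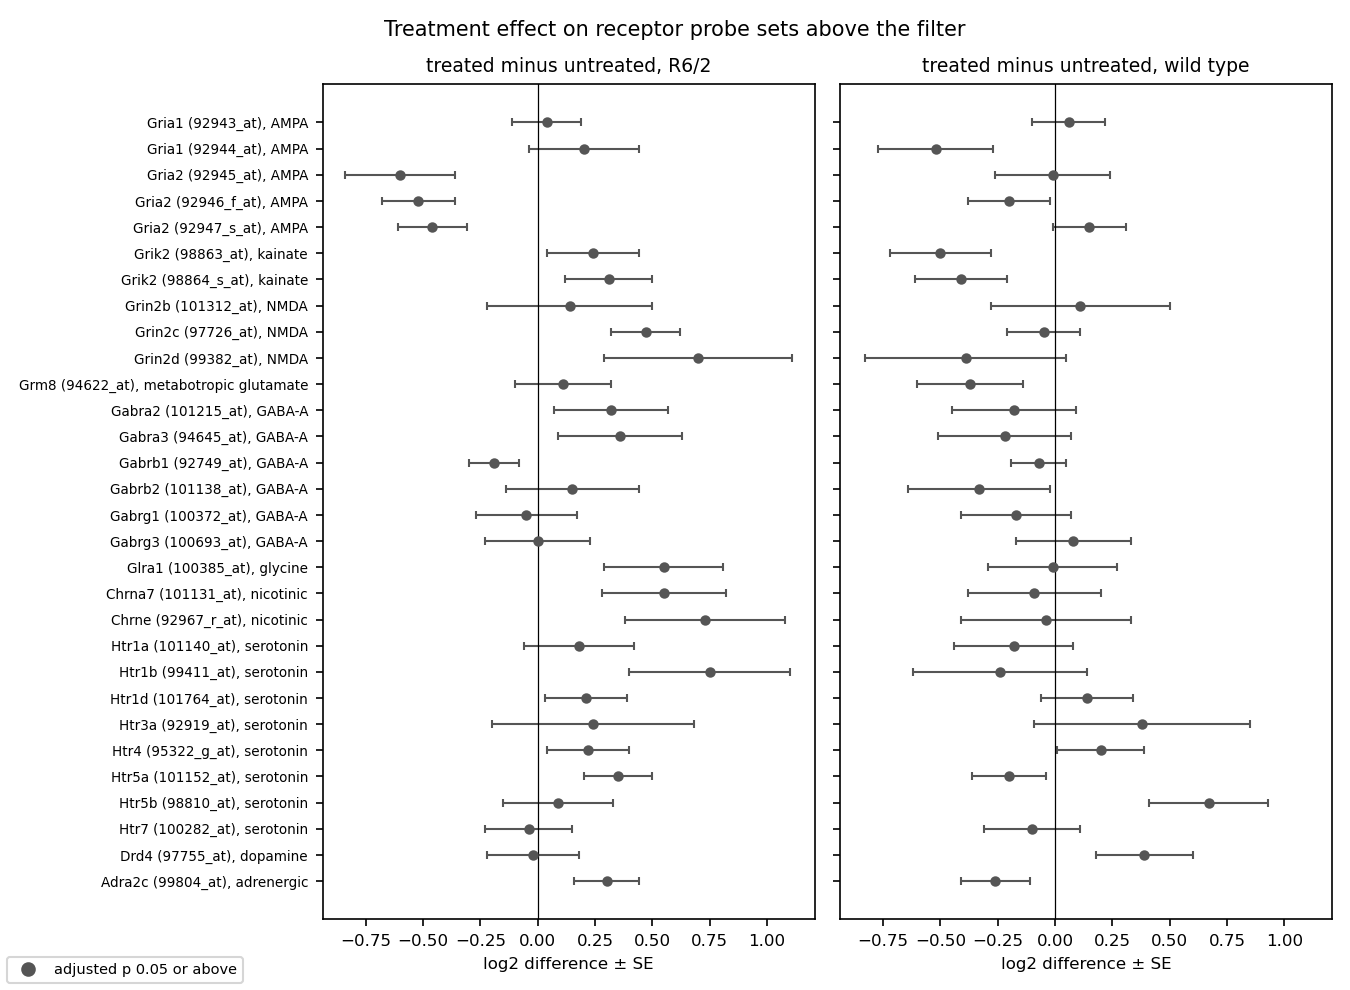
Log2 difference ± SE of the 30 tested receptor probe sets, treated minus untreated, in R6/2 mice (left) and wild type mice (right), in order of family. No point has an adjusted p under 0.05, and the Gria2 estimates in R6/2 mice lie between -0.60 and -0.46.

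The interaction tested whether treatment acted differently in R6/2 and in wild type mice. No receptor probe set passed in limma, with 0% of all probe sets called. Of the 30, 6 for 5 genes had an unadjusted p under 0.05, against 13.5% in all probe sets. The smallest p-values were those of Gria2 92947_s_at (-0.61 ± 0.22), Adra2c (0.56 ± 0.20), Grik2 98864_s_at and 98863_at (0.72 ± 0.28 and 0.74 ± 0.30) and Htr5a (0.55 ± 0.22), with adjusted p of 0.316 to 0.323. With untreated R6/2 arrays 2 and 3 set aside these estimates were -0.34, 0.51, 0.46, 0.58 and 0.42 in the same order, with adjusted p of 0.455 to 0.614. The smaller genotype differences of Adra2c and Grik2 in treated mice are therefore not shown to differ from those in untreated mice.

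Genes that anchor these receptors or make and clear their ligands were counted in untreated R6/2 against untreated wild type mice, where 11.9% of all probe sets were called and 6.41% were called lower. Of 16 tested scaffolds and regulators of AMPA and NMDA receptors 5 fell and none rose, with a median of -0.46 against 0.04 in all probe sets tested. They were Camk2a, a kinase of the postsynaptic density (-2.91 ± 0.54), the scaffolds Dlg4 (-0.85 ± 0.20) and Homer1 (-1.29 ± 0.38), Lin7b (-0.97 ± 0.23) and Nptx2, a secreted protein that clusters AMPA receptors (-0.96 ± 0.19). With untreated R6/2 arrays 2 and 3 set aside, the median of the 16 was -0.24, and Camk2a was the 1 gene still called, at -1.71 ± 0.31 (adjusted p = 0.0154). Dlg4 was then at -0.45 ± 0.14, Homer1 at -0.71 ± 0.24, Lin7b at -1.01 ± 0.27 and Nptx2 at -0.84 ± 0.23 (adjusted p = 0.115, 0.125, 0.0728 and 0.0807). Of 7 anchors of GABA-A and glycine receptors 1 fell, the trafficking adaptor Trak1 (-0.47 ± 0.14), and the median was 0.02. Of 10 genes of glutamate and GABA synthesis and transport 2 fell, the glutamate transporter Slc1a2 (-0.63 ± 0.19) and the glycine transporter Slc6a9 (-0.45 ± 0.12). Of 7 genes of acetylcholine and monoamine turnover 1 fell, Th, which makes the precursor of dopamine and noradrenaline (-0.76 ± 0.20). No gene of these lists rose. The fallen genes of the last 3 lists did not pass when untreated R6/2 arrays 2 and 3 were set aside, at -0.45 for Trak1, -0.54 for Slc1a2, -0.37 for Slc6a9 and -0.54 for Th (adjusted p = 0.1 to 0.236). In treated mice, where 0.792% of all probe sets were called, 1 gene of the 4 lists passed. It was Gad1, which makes GABA, lower in R6/2 mice (-0.56 ± 0.11, limma adjusted p = 0.0197).

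Markers of cell types and regions also differed between genotypes, and their part in the receptor results was not tested. The counts are to be read against the 11.9% of all probe sets called. In bulk tissue fewer cells of a type and less RNA per cell cannot be told apart. Pan-neuronal markers summed to 11040 to 11868 in untreated R6/2 mice, against 12888 to 13478 in untreated wild type mice, and 3 of 12 fell. Striatal projection neuron markers summed to 1620 to 1879 in untreated R6/2 and 3118 to 3610 in untreated wild type mice (3 of 7 fell), and markers of cortical and hippocampal pyramidal cells to 755 to 1090 and 1488 to 1784 in those groups (3 of 6 fell). Of the markers of thalamus, hypothalamus and brain stem 4 of 8 fell, at sums of 561 to 749 in untreated R6/2 and 1110 to 1224 in untreated wild type mice, and of oligodendrocyte markers 4 of 7, at 2381 to 3053 and 4040 to 4466. Cerebellar markers overlapped, at 895 to 1135 in untreated R6/2 and 1056 to 1311 in untreated wild type mice, and 0 of 7 passed. Choroid plexus and meningeal markers summed to 3268 to 4668 in untreated R6/2 and 2434 to 3175 in untreated wild type mice, and 2 of 7 rose. Of astrocyte markers 2 of 7 fell, of microglial markers 1 of 6 rose and of endothelial and blood markers 1 of 8 fell, counts that rest on 1 or 2 genes each. With untreated R6/2 arrays 2 and 3 set aside, where 2.19% of all probe sets were called, the calls were 3 of 7 striatal, 3 of 8 thalamic, hypothalamic and brain stem, 2 of 6 cortical and hippocampal, 2 of 7 oligodendrocyte, 1 of 12 pan-neuronal and 1 of 7 choroid plexus and meningeal markers. The astrocyte markers Aldoc and Slc1a2, the microglial marker Ctss and the blood marker Alas2, called with all arrays, did not pass then (unadjusted p = 0.0129 to 0.0376). Camk2a is also in the list of cortical and hippocampal markers and Slc1a2 in the list of astrocyte markers. No marker on the array was at the floor of 3.1 on all arrays.

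The 5 receptor genes left out by name are given for comparison. In untreated R6/2 against wild type mice Chrm1, the M1 muscarinic receptor, was at -1.41 ± 0.25, Gabrd at -2.12 ± 0.43, Gria3 at -1.19 ± 0.25, Grik5 at -1.10 ± 0.23 on 104409_at and 0.68 ± 0.29 on 162074_r_at, and Drd2, the D2 dopamine receptor, at -0.76 ± 0.17. With untreated R6/2 arrays 2 and 3 set aside, Chrm1 (-0.88 ± 0.15) and Grik5 on 104409_at (-0.62 ± 0.13) were still called (adjusted p = 0.0115 and 0.0329). Gabrd (-1.81 ± 0.49), Gria3 (-0.77 ± 0.20) and Drd2 (-0.58 ± 0.16) were not (adjusted p = 0.0728, 0.0697 and 0.0727). In treated mice Drd2 (-0.93 ± 0.18) and Gabrd (-2.14 ± 0.46) passed (adjusted p = 0.0191 and 0.0439). Gabrd read 9.6, 23.2 and 9.2 in treated R6/2 mice, against 86.3, 52.7 and 38.4 in treated wild type mice, so it lay above the filter signal of 24.9 only through its wild type arrays and 1 untreated R6/2 array.

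The profile most like that of Adra2c across the 13 arrays, among probe sets of other genes, was that of Zfpm1 (Pearson r = 0.968). Arhgef25 (0.96), Rpsa (0.957), Kctd17 (0.95) and Rgs4 (0.949) followed. These correlations describe 13 arrays that fall into 4 groups, so a shared difference between genotypes is part of each value.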

How the data were processed

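The authors deposited 1 linear intensity per probe set and array. Trimming 2% at each end of an array left a mean of 100.047 to 100.128 on every array. This scaling was found from the values, and the software is not given in the sources used here. Values under 3.1, the 10th percentile, were set to 3.1 and log2 was taken. Array medians lay within 10% of their mean, so no further normalization was applied. Of 12488 probe sets 66 controls were left out, and the 7453 at or above the 40th percentile of mean log2 (a signal of 24.9) were tested. The array annotation gave 10833 probe sets 1 gene, 396 several and 1193 none.

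Group means were modelled with limma 3.58.1 (R 4.3.3) over all 13 arrays, with variances following intensity and Benjamini-Hochberg adjustment over the tested probe sets at 0.05, in 6 comparisons. The fit was tested on simulated data. Arrays have no read depth, and their number limits the precision. All 44 member genes were found in RefSeq.

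Named genes were those called, the 5 smallest p-values per comparison, the highest probe set of each family, and all probe sets of such genes. The remaining tested members are given briefly for completeness. Grik5 and the other genes left out by rule are given once. Of the 14 fixed lists each gene was represented by its brightest probe set. Members, lists, alternatives and motifs were chosen with earlier results of these data known. Alternatives changed the filter, low values, scaling, variance model, array weights and arrays used.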

Additional observations from a re-analysis of the deposited data

Results flagged for a closer look

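Among the 30 tested receptor probe sets, 1 had an array far from the rest of the untreated R6/2 group, the only group large enough to examine. Glra1 read 25.2 on untreated R6/2 array 3, against 59.2 to 61 on the other three arrays of the group. Chance marks about 1 in 20 such groups.

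Gria2 on probe set 92947_s_at differed in direction with treatment between genotypes, every treated R6/2 array lying below every untreated R6/2 array and every treated wild type array above every untreated wild type array. Its interaction estimate was -0.61 ± 0.22 (SE, limma adjusted p = 0.316), and -0.34 ± 0.13 without untreated R6/2 arrays 2 and 3, and did not pass. The other tested Gria2 probe sets did not share the rise in treated wild type mice. There 92946_f_at was at -0.20 ± 0.18, lower without overlap, and 92945_at was at -0.01 ± 0.25, with overlap.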

How the results depend on the processing

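The 6 receptor probe sets called in untreated mice became 2 without the filter on dim probe sets (Adra2c and Grik2 98863_at). They became 2 when only the arrays compared were fitted (Gabra2 and Adra2c) and 1 without untreated R6/2 arrays 2 and 3 (Adra2c). Calls among all probe sets fell too, from 887 to 512 (of 12422), 243 and 163 in the same order. With 1 array left out at a time the receptor count was 1 to 8, where calls among all probe sets were 157 to 1308. The receptor count was 1 without any 1 untreated wild type array or untreated R6/2 array 2, and 2 without untreated R6/2 array 3. In those fits 157 to 491 of all probe sets were called. The 2 calls averaged over both arms became 1 without the filter and 4 with array weights, and were 1 to 4 with 1 array left out. They were 1 without untreated wild type array 2, treated wild type arrays 2 or 3, or treated R6/2 arrays 1 or 3, and 4 without untreated R6/2 array 4. Among all probe sets the 493 averaged calls became 428 without the filter and 932 with array weights. They were 263 to 704 with 1 array left out. The 0 calls for treatment in R6/2 mice were 0 to 2 with 1 array left out. The 2 were of Gria2 without untreated R6/2 array 1, where 116 of all probe sets were called. The receptor counts in treated mice, for treatment in wild type mice and for the interaction were 0 under every alternative run. Calls among all probe sets were 20 to 208, 0 to 120 and 0 in the same order. Of 641 values of named probe sets under an alternative, 0 changed sign, 47 lost and 7 gained the call. These probe sets were named for their calls or small p-values in the same data. Changes of the filter or variance model, and omission of arrays outside a comparison, leave an estimate as it was. The lack of sign changes was therefore likely beforehand and is no measure of stability. Scaling moved the median of all probe sets by under 0.1. No paired analysis was possible because the titles give each sample its own number. Dim members and the 3 or 4 arrays per group limit what can be called.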

Other observations

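The 25 member probe sets below the filter covered Gria4, Grik1, Grin2a, Gabra6, Gabrr1, Gabrr2, Chrna1, Chrna6, Chrnb1, Chrnb2, Chrnd, Chrng, Chrm4, Htr1f, Htr2b, Htr2c, Drd3 and Adra1b, and further probe sets of Gria2, Chrne and Htr4. None passed when all gene probe sets were fitted by limma, and 2 of the 25, Chrm4 and Adra1b, had an unadjusted p under 0.05 in any comparison. They are described here after their values were seen. The share of all probe sets with an unadjusted p under 0.05 in that same fit is not given here. Among probe sets above the filter it was 9.19% to 30.2%, depending on the comparison. A count of 2 of the 25 over all comparisons is therefore not shown to exceed the background.

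Chrm4 encodes the M4 muscarinic receptor of striatal neurons. It read 27.5, 13.8 and 16.1 in treated R6/2 mice, against 5.8, 6.7, 6.8 and 6 in untreated R6/2 mice, so that every treated R6/2 array was the higher. Untreated wild type mice read 9.6, 8.5 and 18.5, above the untreated R6/2 arrays. Neither difference passed in limma, at an adjusted p of 0.243 for treatment in R6/2 mice and of 0.152 for genotype in untreated mice. Leaving out untreated R6/2 arrays 2 and 3, chosen as an added setting after seeing the data, gave 1.63 ± 0.43 for treatment and -0.96 ± 0.43 for genotype, against 1.53 ± 0.33 and -0.86 ± 0.33 with all arrays (log2, SE).

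Adra1b encodes the alpha 1B adrenergic receptor. It read 17.7, 3.6, 8.1 and 7 in untreated R6/2 mice, against 23.9, 20.3 and 29.6 in untreated wild type mice, a log2 difference of -1.65 ± 0.51 (SE, limma adjusted p = 0.091), and of -1.13 ± 0.53 without untreated R6/2 arrays 2 and 3. In treated mice the groups overlapped, at 11.7, 13.1 and 13.7 in R6/2 and 18.4, 23.9 and 7.5 in wild type mice. Signals this low are close to the floor of 3.1 and the files hold no detection calls.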
